A study of Mus musculus with 51 samples.

Results

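The 10 genes described here make serine and mitochondrial one-carbon units or respond to a shortage of amino acids: Phgdh, Psat1, Psph, Shmt2, Mthfd2, Asns, Chac1, Trib3, Ddit3 and Atf3. They were chosen by name, and 21 probe sets that the platform annotation gives to 1 of them alone measured them, out of 18193 genes and 45101 probe sets. A pair of further probe sets that Phgdh shares with predicted genes was left out. The study hybridised 51 Affymetrix mouse arrays, 3 for each of 17 groups, to ask about a family of small nuclear proteins that bind nucleosomes, the HMGN proteins.

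Primary mouse embryonic fibroblasts (MEFs) on a C57BL/6 background came as HMGN1 knock out, HMGN3 knock out and HMGN5 knock out, each with its own wild-type (WT) group, named HMGN1 WT, HMGN3 WT and HMGN5 WT. SV40-transformed MEFs, an established line, carried a construct. Those labelled OE, for overexpression, held HMGN5, HMGN2, HMGN1, HMGN3a or HMGN5SE, and other pools held the HMGN1 variants HMGN1_N2swap and HMGN1_N3swap or an empty vector. MIN6 is an insulinoma line from mouse pancreas, and its pools carried HMGN1 OE, HMGN3a OE or an empty vector. All transduced cells, vector controls included, were infected with retrovirus in the presence of polybrene. They were selected in 1 µg/ml puromycin for 7 days and kept without it for 24 hours. Each transduced sample is a pool of infected cells, not a clone. The sample records list the same polybrene, puromycin and timing for the primary MEFs. The labels do not say what SE stands for, which parts were swapped, whether replicates were separate cultures or infections, or the age of the embryos. The p-values therefore measure the spread between arrays of the same group, pooled over all groups of a fit. That spread may be technical.

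Phgdh, Psat1 and Psph are the successive enzymes that turn a glycolytic intermediate into serine. Shmt2 and Mthfd2 pass a carbon of serine to folate inside mitochondria, which feeds the synthesis of purines and thymidylate. When amino acids run short or unfolded protein builds up, phosphorylation of the initiation factor eIF2 favours translation of the transcription factor ATF4, which then switches on amino acid synthesis, transport and tRNA charging genes. Asns makes asparagine, Chac1 breaks down glutathione, Trib3 is a pseudokinase that restrains ATF4, Ddit3 encodes CHOP, a factor linked to cell death under lasting stress, and Atf3 is a stress-induced repressor of the same family.

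ATF4 binds with C/EBP partners at a composite element, and its core, TGATGNAA or on the other strand TTNCATCA, was searched on both strands of RefSeq promoter windows (build GRCm38.p6, 250 bases before to 50 after each start). It lay in 4 of 11 windows of the 10 genes and in 3.97% of 32851 windows in all. The 4 matches are shown in capitals, on the strand of the gene, because they are the stretches of these promoters in which the letters of the ATF4 element occur. The printed stretches, which are parts of the windows, are chr6:7693210-7693258 for Asns (minus strand), chr1:191183410-191183469 for Atf3 (minus), chr2:119351023-119351082 for Chac1 (plus) and chr2:152344028-152344057 for Trib3 (minus).
Asns: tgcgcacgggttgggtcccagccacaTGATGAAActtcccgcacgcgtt
Atf3: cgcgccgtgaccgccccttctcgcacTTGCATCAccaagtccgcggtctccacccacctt
Chac1: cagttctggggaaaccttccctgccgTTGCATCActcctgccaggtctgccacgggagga
Trib3: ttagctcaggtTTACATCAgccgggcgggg
The match begins 23 bases before the start of Asns, 110 before that of Atf3 and 193 before that of Chac1, and 14 bases after that of Trib3. A cyclic AMP response element core (TGACGTCA, in 1.79% of all windows) and a MYC E-box (CACGTG, in 7.15%) lay in 0 of the 11 windows. The matches describe letters only, and binding was not measured.

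All levels below are log2 intensities, and all differences are log2 differences with their standard error. A gene was called where its adjusted p was below 0.05 in limma over all genes of the cell type. Each gene is read from its brightest probe set. The median intensity of an array lay between 5.47 and 5.93 for primary MEFs, between 18.7 and 19.6 for the SV40 line and between 55.5 and 57.6 for MIN6, so the cell types were treated as normalized apart and levels are compared within a cell type only. The dim level of a cell type is the 40th percentile of its group means. Of 8 fibroblast markers, all 8 were above that level in primary MEFs and 6 or 7 in SV40 MEFs, where Pdgfra lay below it in 7 of 8 groups. In MIN6 cells 7 of 7 beta cell markers with a probe set were above it, as was 1 fibroblast marker, Dcn. The brightest Hmgn1 probe set was lower in HMGN1 knock outs (mean 10.59, against 11.25 in HMGN1 WT), and that of Hmgn3 in HMGN3 knock outs (6.25, against 7.54). The Hmgn5 probe set went against the labels: its mean was 5.69 in the arrays labelled HMGN5 knock out against 4.97 in HMGN5 WT, and 7.62 in the pools labelled HMGN5 OE against 8.55 in vector pools. Whether these probes lie in a deleted part or in a construct is not given in the sources used here. For overexpression, the brightest Hmgn1 probe set gave means of 12.25 in HMGN1 pools and 12.26 in vector pools of SV40 MEFs. The brighter Hmgn3 probe set also went against the label in SV40 MEFs, at 9.25 in the pools labelled HMGN3a OE and 9.48 in vector pools, with a difference of -0.02 by the other one. In MIN6 cells it was at 11.59 in HMGN3a pools and 11.37 in vector pools. There the brightest Hmgn1 probe set was at 12.50 in HMGN1 pools and 12.54 in vector pools. No probe set was read for Hmgn2. A fall in bulk RNA could reflect fewer cells of a type or less RNA per cell, which these arrays cannot tell apart.

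In SV40 MEFs most of the 10 genes were lower with HMGN1, HMGN2 or the construct labelled HMGN5, while the pools labelled HMGN3a OE and those of HMGN5SE gave no call. In the pools labelled HMGN5 OE all 10 fell: Ddit3, the least, fell by 14.5%, and Trib3, the most, fell by 60.7%. In HMGN2 pools 8 fell and Ddit3 was called higher by its brighter probe set, and in HMGN1 pools 6 fell, namely the 5 enzymes of serine synthesis and mitochondrial folate and Asns. Among all tested genes, 20.8% were called lower and 20.7% higher in the pools labelled HMGN5 OE, 25.6% and 18.8% in HMGN2 pools, and 12.1% and 17.4% in HMGN1 pools. The median difference of the 10 genes was -0.79, -0.50 and -0.36 in the pools labelled HMGN5, HMGN2 and HMGN1 OE in turn, beside -0.01, -0.06 and 0.00 over all tested genes. These comparisons share the same 3 vector pools.

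**Figure D1:**
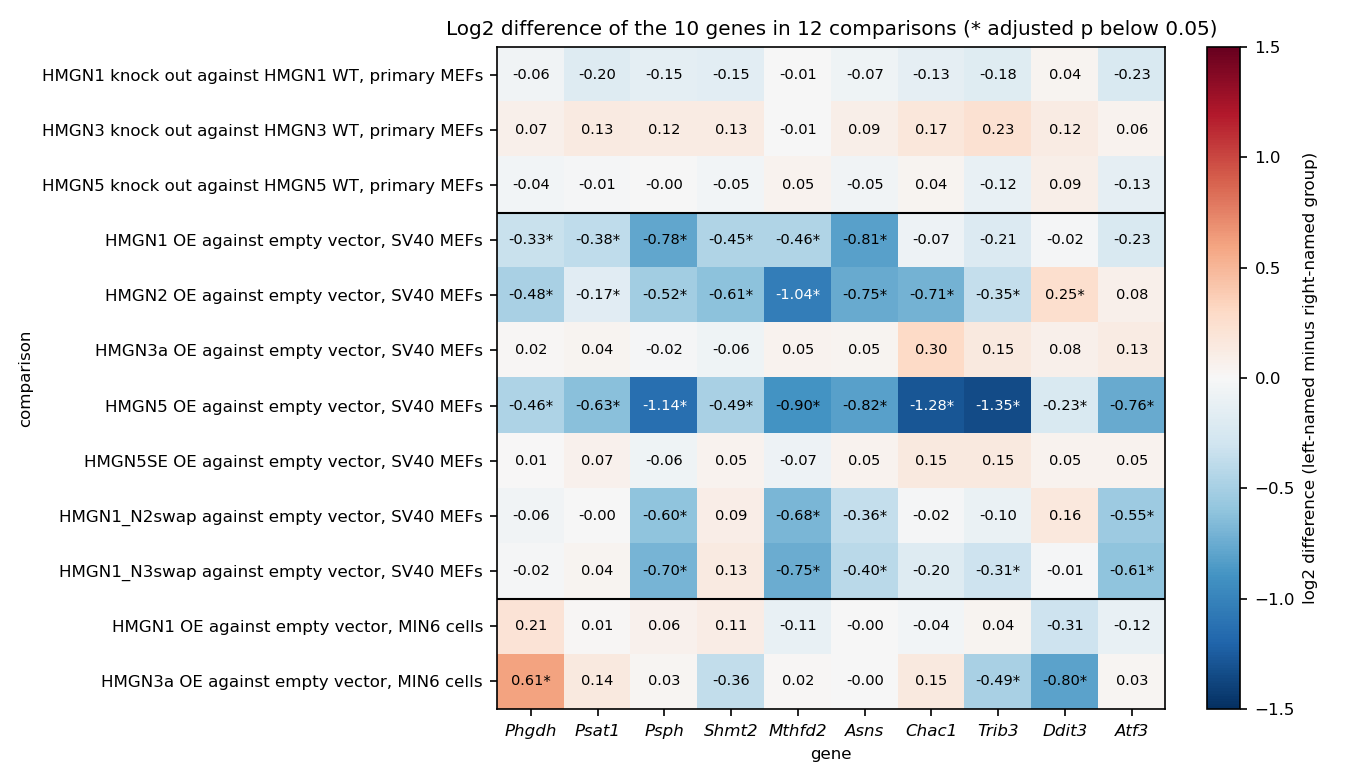
Log2 difference of each gene (columns) in the 12 comparisons with a WT or vector control (rows), in colour and as a printed value, with an asterisk at an adjusted p below 0.05. In SV40 MEFs the rows labelled HMGN5, HMGN2 and HMGN1 OE hold 10, 9 and 6 calls, and the rows labelled HMGN3a and HMGN5SE and the 3 knock outs hold 0.

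Psph, the phosphatase that completes serine synthesis, was among the most changed. It stood at 9.17, 9.20 and 9.11 in the pools labelled HMGN5 OE, 9.72, 9.83 and 9.78 in HMGN2 pools and 9.61, 9.42 and 9.53 in HMGN1 pools, against 10.33, 10.27 and 10.29 in vector pools. The groups did not overlap, and Psph was lower by 54.5%, 30.2% and 41.7% (differences -1.14 ± 0.06, -0.52 ± 0.06 and -0.78 ± 0.06; adjusted p = 2.31e-12, 1.28e-06 and 7.8e-09). Phgdh, the first and committed enzyme, was at 11.55, 11.60 and 11.56 in the pools labelled HMGN5 OE, 11.60, 11.51 and 11.55 in HMGN2 pools and 11.67, 11.69 and 11.75 in HMGN1 pools, against 12.03, 12.03 and 12.05 in vector pools. No array of the 3 constructs reached the vector level, and Phgdh fell by a smaller step (-0.46, -0.48 and -0.33; largest adjusted p = 5.09e-05), and the 4 Phgdh probe sets fell in all 3 constructs. Psat1, the transaminase between them, was at 11.10, 11.13 and 11.06 in the pools labelled HMGN5 OE, 11.53, 11.56 and 11.55 in HMGN2 pools and 11.39, 11.27 and 11.36 in HMGN1 pools, against 11.76, 11.69 and 11.71 in vector pools. Every construct pool lay below every vector pool. Its fall was -0.63 ± 0.06 in the pools labelled HMGN5 OE and -0.38 ± 0.06 in HMGN1 pools. In HMGN2 pools it was -0.17 ± 0.06 (adjusted p = 0.0179), a call that was lost without vector pool 1 (adjusted p = 0.0688).

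Both mitochondrial folate enzymes fell with all 3 constructs. Mthfd2, a dehydrogenase-cyclohydrolase typical of growing cells, was at 10.03, 10.05 and 10.01 in the pools labelled HMGN5 OE, 9.97, 9.76 and 9.94 in HMGN2 pools and 10.60, 10.36 and 10.46 in HMGN1 pools, against 11.01, 10.96 and 10.81 in vector pools. The constructs did not overlap the vector, and HMGN2 pools were the lowest. Its difference was -0.90 ± 0.10, -1.04 ± 0.10 and -0.46 ± 0.10 (adjusted p = 1.02e-07, 1.93e-08 and 0.00124), so that HMGN2 pools held 51.3% less signal. Shmt2, which splits serine into glycine and a one-carbon unit, was at 10.26, 10.31 and 10.34 in the pools labelled HMGN5 OE, 10.31, 10.06 and 10.19 in HMGN2 pools and 10.31, 10.35 and 10.39 in HMGN1 pools, against 10.84, 10.75 and 10.81 in vector pools. The vector pools lay above all 9 others. Here the 3 constructs gave differences of -0.49 ± 0.07, -0.61 ± 0.07 and -0.45 ± 0.07, each called (largest adjusted p = 2.27e-05).

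Asns fell to nearly one level in the 3 sets of pools. It was at 10.67, 10.78 and 10.70 in the pools labelled HMGN5 OE, 10.75, 10.81 and 10.80 in HMGN2 pools and 10.72, 10.65 and 10.80 in HMGN1 pools, against 11.59, 11.56 and 11.47 in vector pools. No construct pool overlapped a vector pool. The falls of -0.82 ± 0.07, -0.75 ± 0.07 and -0.81 ± 0.07 amount to 43.4%, 40.5% and 43.1% (largest adjusted p = 7.24e-09).

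Chac1 and Trib3 separated the constructs. Chac1 was at 7.82, 7.82 and 7.75 in the pools labelled HMGN5 OE, 8.38, 8.34 and 8.37 in HMGN2 pools and 9.15, 8.75 and 9.12 in HMGN1 pools, against 9.08, 9.12 and 9.03 in vector pools. It fell by 58.8% and 39% in the pools labelled HMGN5 OE and in HMGN2 pools (differences -1.28 ± 0.08 and -0.71 ± 0.08; adjusted p = 3.36e-11 and 6.24e-07), and HMGN1 pools overlapped the vector pools (-0.07 ± 0.08, adjusted p = 0.553). Trib3 was at 6.45, 6.45 and 6.33 in the pools labelled HMGN5 OE, 7.38, 7.40 and 7.42 in HMGN2 pools and 7.66, 7.36 and 7.63 in HMGN1 pools, against 7.66, 7.72 and 7.88 in vector pools. All 9 construct pools lay below the vector pools, those labelled HMGN5 OE far below. The fall of -1.35 ± 0.12 in the pools labelled HMGN5 OE (adjusted p = 5.23e-09) was the largest of the 10 genes in any comparison with vector. In HMGN2 pools Trib3 was -0.35 ± 0.12 (adjusted p = 0.0208), a call lost without vector pool 3 or HMGN2 pool 1, or with a covariate for the 3' to 5' balance of Actb, and in HMGN1 pools -0.21 ± 0.12 (adjusted p = 0.207).

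The transcription factor genes were less alike. Atf3 was at 5.55, 5.53 and 5.34 in the pools labelled HMGN5 OE, 6.31, 6.31 and 6.31 in HMGN2 pools and 6.08, 5.89 and 6.03 in HMGN1 pools, against 6.23, 6.17 and 6.29 in vector pools. HMGN2 pools lay above the vector pools and the other construct pools below them. Its fall passed the test in the pools labelled HMGN5 OE (-0.76 ± 0.10, adjusted p = 1.09e-06), beside 0.08 ± 0.10 with HMGN2 and -0.23 ± 0.10 with HMGN1 (adjusted p = 0.53 and 0.0776). Ddit3 was at 6.44, 6.31 and 6.35 in the pools labelled HMGN5 OE, 6.72, 6.91 and 6.90 in HMGN2 pools and 6.55, 6.51 and 6.64 in HMGN1 pools, against 6.60, 6.63 and 6.54 in vector pools. HMGN1 pools overlapped the vector pools, the pools labelled HMGN5 OE lay below them and HMGN2 pools above. Its fall of -0.23 ± 0.07 in the pools labelled HMGN5 OE (adjusted p = 0.0136) was lost without vector pool 2 or HMGN5 OE pool 2 (largest adjusted p = 0.0611). The HMGN2 pools were higher by 0.25 ± 0.07 (adjusted p = 0.00682). The dimmer of both Ddit3 probe sets went the other way there, at -0.30 ± 0.11 (adjusted p = 0.0351 over 24619 probe sets), so that no direction of Ddit3 in HMGN2 pools can be given.

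**Figure D2:**
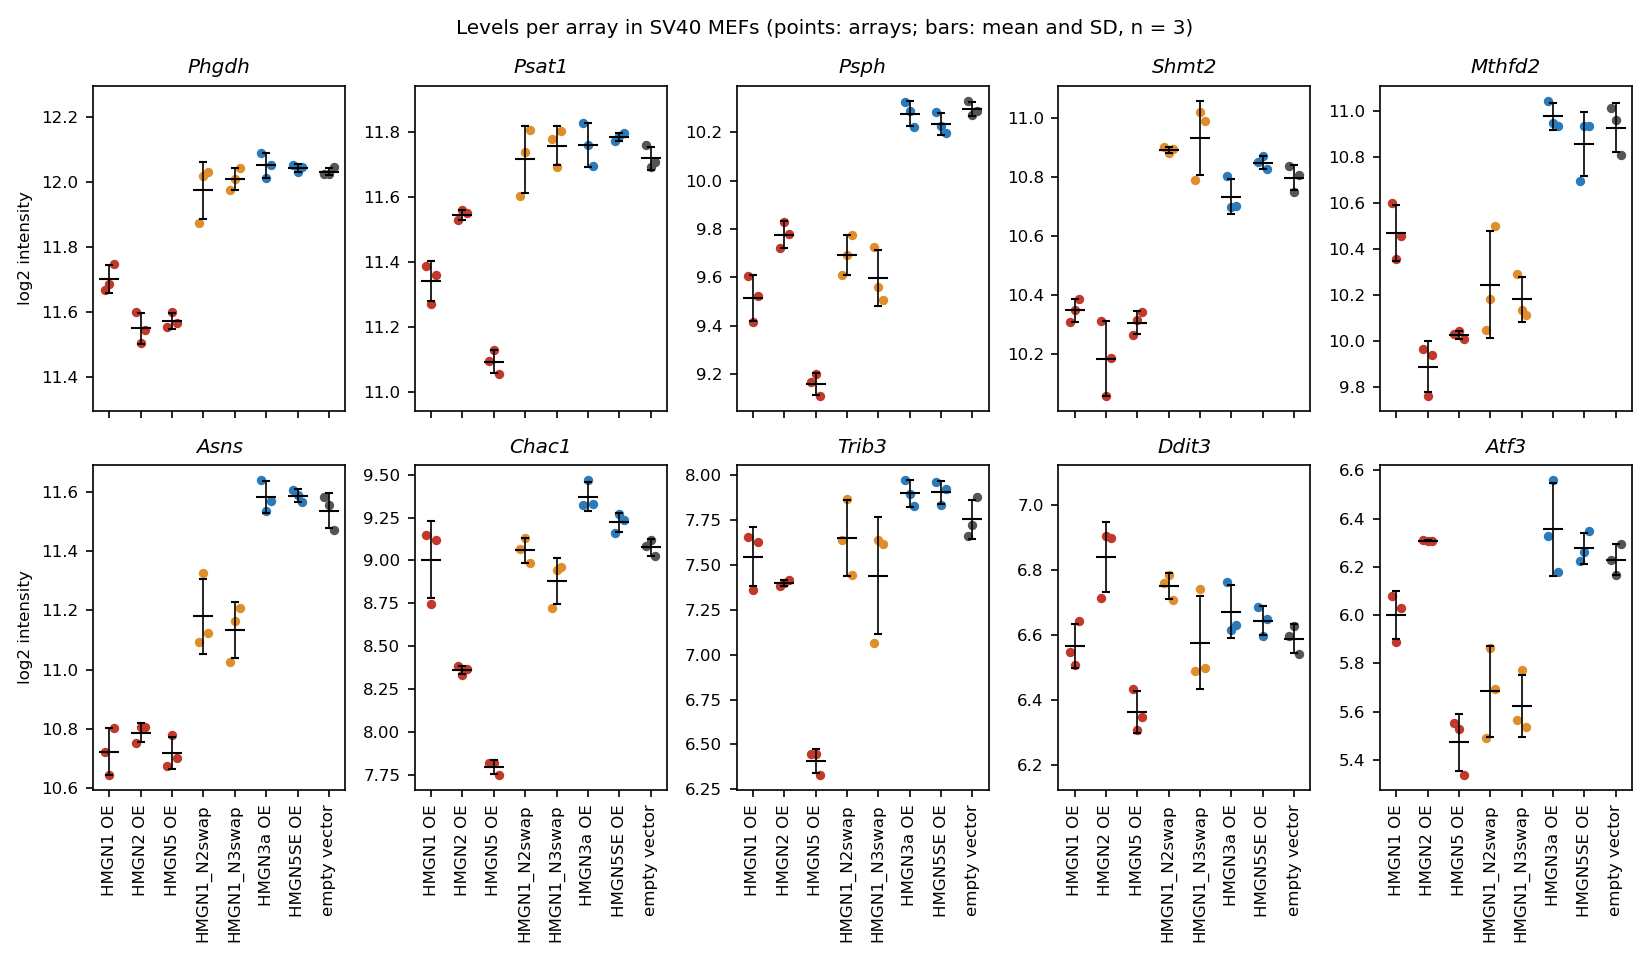
Log2 intensity of each gene in the 24 SV40 MEF arrays, with a point for each array and bars for the mean and SD (n = 3), and the empty vector at the right of each panel. The pools labelled HMGN5 OE lie below the vector pools in all 10 panels, while those labelled HMGN3a and HMGN5SE lie near them.

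Over the 21 single probe sets, differences from vector ran from -1.35 to -0.20 in the pools labelled HMGN5 OE. They ran from -1.04 to 0.25 in HMGN2 pools and from -0.98 to -0.02 in HMGN1 pools. Cell type markers moved with some of these results. The summed intensity of the 8 fibroblast markers was 16933 to 17603 in the pools labelled HMGN5 OE and 15212 to 16641 in HMGN2 pools, against 7757 to 8035 in vector pools. Among the 8, Pdgfra was above the dim level in the pools labelled HMGN5 OE alone. Thy1 went the other way, below the dim level there and in HMGN1 pools and above it in vector pools. In HMGN1 pools the sum was 8187 to 8503. Summed epithelial markers were 105.1 to 111.8, 113.4 to 129.7 and 111.9 to 132.5 in the pools labelled HMGN5, HMGN2 and HMGN1 OE in turn, against 134.8 to 137.5 in vector pools. The part of these shifts in the falls was not tested.

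The 2 swap constructs gave a narrower pattern, in which Phgdh, Psat1 and Shmt2 were not called by their brightest probe sets. Read one by one, 1 of 4 Shmt2 probe sets was called higher with both swaps (0.30 and 0.29) and 1 of 4 Phgdh probe sets lower with N3swap (-0.21). The dimmer Ddit3 probe set was called lower with N2swap and N3swap (-0.52 and -0.38). Its brighter one was not called (0.16 and -0.01). With HMGN1_N2swap 4 of the 10 genes fell and with HMGN1_N3swap 5 fell, where 19.3% and 20.0% of all tested genes were called lower and 17.7% and 17.4% higher. Psph was at 9.61, 9.69 and 9.77 with N2swap and 9.73, 9.56 and 9.51 with N3swap, against 10.33, 10.27 and 10.29 with vector (-0.60 ± 0.06 and -0.70 ± 0.06; adjusted p = 2.77e-07 and 3.71e-08). Mthfd2 was at 10.05, 10.18 and 10.50 with N2swap and 10.29, 10.14 and 10.12 with N3swap, against 11.01, 10.96 and 10.81 with vector (-0.68 ± 0.10 and -0.75 ± 0.10; larger adjusted p = 1.09e-05). For both genes each swap lay below all vector pools. Asns was at 11.09, 11.33 and 11.12 with N2swap and 11.03, 11.17 and 11.21 with N3swap, against 11.59, 11.56 and 11.47 with vector, and fell by 21.9% and 24.5%. Atf3 lay below every vector pool, at 5.49, 5.87 and 5.70 with N2swap and 5.57, 5.77 and 5.54 with N3swap (-0.55 ± 0.10 and -0.61 ± 0.10; larger adjusted p = 0.000121).

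Trib3 was called with N3swap and not with N2swap by its brighter probe set, while the other one fell with both (-0.43 with N3swap and -0.26 with N2swap). It was at 7.07, 7.64 and 7.62 with N3swap and 7.64, 7.87 and 7.44 with N2swap, and that call (-0.31 ± 0.12, adjusted p = 0.0456) was lost in 8 of 13 alternatives, among them without any one of the vector pools and without N3swap pool 1. Shmt2 was 0.09 ± 0.07 and 0.13 ± 0.07 (adjusted p = 0.277 and 0.113). Phgdh and Psat1 overlapped the vector pools with both swaps. The difference between the 3' and 5' probe sets of Actb, which grows as RNA is shortened, was 0.39 to 0.79 with N2swap and 0.47 to 0.77 with N3swap, against 0.23 to 0.29 with vector. With it as a covariate Psph, Mthfd2, Asns and Atf3 kept their calls with both swaps. The Actb ranges of the swaps and of vector did not overlap, so covariate and group were confounded. The kept calls therefore cannot separate the construct from shortened RNA. Over all alternatives the Mthfd2 difference from vector ran from -0.81 to -0.37 with N2swap and from -0.80 to -0.46 with N3swap. The summed fibroblast markers were 9375 to 10028 with N3swap and 8819 to 10858 with N2swap, against 7757 to 8035 with vector. Summed epithelial markers were 96.7 to 101.7 with N3swap and 95.5 to 97.9 with N2swap, against 134.8 to 137.5 with vector. Among them, Cdh1 and Krt18 lay below the dim level in every SV40 MEF group, vector pools included. Their part was not tested.

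None of the 10 genes was called in SV40 pools labelled HMGN3a or HMGN5SE OE. In the pools labelled HMGN3a OE 0 of 10 were called where 0.0297% of all tested genes were, and 1 had an unadjusted p below 0.05. That gene was Chac1, at 9.32, 9.47 and 9.33, against 9.08, 9.12 and 9.03 with vector (0.30 ± 0.08, adjusted p = 0.217). In HMGN5SE pools 0 of 10 were called where 0.0149% of all genes were, and 0 had an unadjusted p below 0.05, with differences from -0.07 for Mthfd2 to 0.15 for Trib3.

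The differences in direct contrasts of constructs use no vector arrays, though those arrays enter the pooled spread. Of the 4 contrasts, 3 share the HMGN1 pools. Between HMGN5SE and the construct labelled HMGN5, all 10 genes were higher in HMGN5SE pools, where 22.2% of all tested genes were called higher. The difference ran from 0.28 ± 0.07 for Ddit3 to 1.499 ± 0.12 for Trib3. Of the 21 probe sets, the dimmer of Ddit3 alone went the other way, at -0.16 ± 0.11 (adjusted p = 0.292). Trib3 was at 7.96, 7.84 and 7.92 in HMGN5SE pools, against 6.45, 6.45 and 6.33 in the pools labelled HMGN5 OE. Chac1 differed by 1.42 ± 0.08 and Psph by 1.08 ± 0.06 (adjusted p = 4.87e-12 and 5.97e-12).

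Between HMGN2 and HMGN1 pools the genes split, with 4 lower and 4 higher in HMGN2 pools, beside 26.2% and 14.9% of all tested genes. Chac1 and Mthfd2 differed by -0.64 ± 0.08 and -0.58 ± 0.10 (adjusted p = 2.89e-06 and 5.25e-05). Phgdh was lower by a small step, -0.15 ± 0.05, lost without HMGN1 pool 3, HMGN2 pool 2 or HMGN2 pool 3, and the call of Shmt2 (-0.16 ± 0.07, adjusted p = 0.0494) was lost in 10 of 13 alternatives. Psph, Psat1 and Atf3 were higher in HMGN2 pools by 0.26, 0.21 and 0.31. The count of 4 higher includes Ddit3, at 0.27 by its brighter probe set, while the dimmer one was at -0.24 (adjusted p = 0.0923), so its direction is not settled. Without HMGN1 pool 2 the call of Atf3 was lost (adjusted p = 0.0711).

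Each swap construct was also set against HMGN1. With N2swap 6 genes were higher and 1 lower, beside 19.9% and 26.1% of all tested genes, and with N3swap 4 were higher and 2 lower, beside 22.8% and 28.2%. Phgdh, Psat1, Shmt2 and Asns were higher with both. Shmt2 was at 10.90, 10.88 and 10.90 with N2swap and 10.79, 11.02 and 10.99 with N3swap, against 10.31, 10.35 and 10.39 with HMGN1 (0.54 ± 0.07 and 0.58 ± 0.07; adjusted p = 7.33e-07 and 2.51e-07). Psat1 differed by 0.38 ± 0.06 and 0.42 ± 0.06, and Asns by 0.46 ± 0.07 and 0.41 ± 0.07. Atf3 was lower with both, at -0.32 ± 0.10 and -0.38 ± 0.10, though renewed quantile normalization lost both calls, and the Actb covariate or leaving out N2swap pool 1 lost that of N2swap. The call of Ddit3 as higher with N2swap rests on its brighter probe set, and the dimmer one was called lower (-0.46). Calls of Psph and Ddit3 with N2swap and of Mthfd2 with N3swap were each lost without single pools. That of Psph was lost without HMGN1 pool 2 or 3 or N2swap pool 2 or 3, and that of Ddit3 without HMGN1 or N2swap pool 1 or 2. For Mthfd2 it was lost without HMGN1 pool 1 or N3swap pool 2 or 3. The Actb covariate also lost these calls of Ddit3 and Mthfd2. Over all alternatives the Mthfd2 difference between N3swap and HMGN1 ran from -0.35 to -0.02.

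Other genes of the response were read from lists, whose counts stand beside the shares of all tested genes called lower and higher. These shares were 20.8% and 20.7% in the pools labelled HMGN5 OE, 25.6% and 18.8% in HMGN2 pools, and 12.1% and 17.4% in HMGN1 pools. With N2swap they were 19.3% and 17.7%, and with N3swap 20.0% and 17.4%. A count near its share says nothing particular about a list. The enzymes that charge tRNAs, together with the tRNA exporter Xpot, fell with the same 3 constructs: 12 of 13 in the pools labelled HMGN5 OE, 12 of 13 in HMGN2 pools and 11 of 13 in HMGN1 pools, with 0 higher. Their median difference was -0.63, -0.36 and -0.31. Iars, the isoleucine enzyme, fell by 0.84 on the log2 scale in the pools labelled HMGN5 OE, Gars (glycine) by 0.61 in HMGN2 pools and Eprs (glutamate and proline) by 0.51 in HMGN1 pools. With each swap 5 of 13 fell, Eprs by 0.67 with N2swap and 0.67 with N3swap on the log2 scale, and 1 was higher with N2swap.

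Of 12 tested other ATF4 targets, 6 fell and 2 rose in the pools labelled HMGN5 OE, 8 fell and 1 rose in HMGN2 pools, and 6 fell and 2 rose in HMGN1 pools. Aldh1l2, the mitochondrial enzyme that oxidises formyl-folate, had the largest fall of the list in all 3, at -1.59, -1.37 and -1.58 (largest adjusted p = 1.79e-12). Pck2, mitochondrial phosphoenolpyruvate carboxykinase, fell by 1.06, 0.72 and 1.00 on the log2 scale. With the swaps 4 and 5 of the 12 fell with N2swap and N3swap and 1 rose with each, and Pck2 was -0.99 and -1.11. Among 10 amino acid transporters 5 fell and 2 rose in the pools labelled HMGN5 OE, 6 fell and 0 rose in HMGN2 pools, and 4 fell and 1 rose in HMGN1 pools. The cystine carrier Slc7a11 fell in all 3 (-0.91, -0.48 and -0.79). It was at 3.67, 4.10 and 3.79, against 4.58 with vector, near the dim level of 3.63, so these sizes are uncertain. The leucine carrier Slc7a5 fell by 0.74 in the pools labelled HMGN5 OE, and Slc1a5, a glutamine carrier, rose there by 0.70. Of the transporters 3 fell and 2 rose with N2swap and 4 fell and 1 rose with N3swap.

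Chaperones of the endoplasmic reticulum, which answer to unfolded protein by other factors, did not share one direction. In HMGN2 pools 8 of 13 rose and 2 fell, with Sdf2l1 at 0.70, Pdia4 at 0.68 and Dnajb9 at 0.67. In the pools labelled HMGN5 OE 5 rose and 4 fell, with Hsp90b1 at 0.43 and Herpud1 at -0.76. In HMGN1 pools 2 rose and 0 fell, while 1 rose with each swap and 4 fell with N2swap and 5 with N3swap. Other folate genes fell in 5, 6 and 2 of 10 and rose in 0, 1 and 1 in the pools labelled HMGN5, HMGN2 and HMGN1 OE in turn, the cytosolic Shmt1 at -0.83 in the pools labelled HMGN5 OE. With N2swap and N3swap 4 and 3 of them rose and 0 fell, and Shmt1 was 0.29 and 0.32.

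Atf4 itself fell in the pools labelled HMGN5 OE (-0.32, adjusted p = 0.00375) and in HMGN2 pools (-0.24, adjusted p = 0.0247). In HMGN1 pools Atf4 was -0.04 (adjusted p = 0.782), and it was not called with either swap. Myc, which also drives serine and folate genes, had no common direction: it rose with HMGN2, N2swap and N3swap (0.48, 0.36 and 0.39), fell with HMGN1 (-0.32, adjusted p = 0.00727), and was -0.11 in the pools labelled HMGN5 OE (adjusted p = 0.346). Of 13 tested regulators, 3, 5 and 7 rose and 6, 4 and 2 fell in the pools labelled HMGN5, HMGN2 and HMGN1 OE in turn. Beside them, 20.7%, 18.8% and 17.4% of all tested genes rose and 20.8%, 25.6% and 12.1% fell. The 3 that rose in the pools labelled HMGN5 OE, the 4 that fell in HMGN2 pools and the 2 that fell in HMGN1 pools lie near these shares. With N2swap and N3swap 2 regulators rose and 5 and 4 fell, beside 17.7% and 17.4% of all tested genes higher and 19.3% and 20.0% lower. The 2 that rose with each swap also lie near the shares. Eif2ak2, the interferon-induced eIF2 kinase, rose by 2.06 in HMGN1 pools and fell by 1.34 on the log2 scale with N3swap, and Cebpb, a partner of ATF4, fell by 1.11 and 1.12 with the swaps.

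In MIN6 cells with HMGN3a, Phgdh rose while Trib3 and Ddit3 fell. So 1 of the 10 genes was called higher and 2 lower, beside 14.6% and 19.5% of all tested genes. Both counts lie near these shares and say nothing particular about the 10 genes as a set. Phgdh, read from another probe set here than in MEFs, was at 10.36, 10.46 and 10.14 in HMGN3a pools, against 9.74, 9.67 and 9.74 in vector pools (0.61 ± 0.08, 52.1% more, adjusted p = 0.000177). All 4 Phgdh probe sets were called higher. Ddit3 was at 8.33, 8.60 and 8.51 in HMGN3a pools, against 9.46, 9.38 and 8.999 (-0.80 ± 0.14, adjusted p = 0.00166), and its dimmer probe set fell too (-0.44 ± 0.11). Trib3 was at 7.53, 7.90 and 7.78, against 8.26, 8.26 and 8.16 (-0.49 ± 0.10, adjusted p = 0.00351). For these 3 genes the groups did not overlap.

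Psat1 (0.14 ± 0.05, adjusted p = 0.0526) and Shmt2 (-0.36 ± 0.13, adjusted p = 0.0531) missed the threshold, and Shmt2 passed it without vector pool 1 or HMGN3a pool 2. Asns, so much lower with 3 constructs in SV40 MEFs, was at 11.89, 11.98 and 11.95, against 11.91, 11.997 and 11.91 with vector. Atf4 was -0.12 (adjusted p = 0.114) and Myc rose by 0.29. From the lists, 5 of 13 tRNA charging genes fell and 0 rose (Mars1 -0.49), 3 of 12 ATF4 targets fell and 1 rose, 2 of 9 transporters fell and 1 rose, 2 of 9 folate genes fell and 1 rose, 4 of 13 regulators fell and 1 rose, and 6 of 13 chaperones fell and 0 rose. Beside these counts, 19.5% of all tested genes fell and 14.6% rose, and those of the transporters, folate genes and ATF4 targets lie near these shares. Cth, which makes cysteine, fell by 1.15 on the log2 scale (adjusted p = 2.07e-05), Slc38a1 was -0.72 and the arginine carrier Slc7a3 0.67. The summed intensity of 4 markers of other endocrine cells was 2361 to 2684 in HMGN3a pools, against 4928 to 5169 with vector, and that of 5 epithelial markers 4283 to 4727, against 3433 to 3651. Their part in these results was not tested.

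HMGN1 in MIN6 cells gave 0 calls among the 10 genes where 1.16% of all tested genes were called, and 1 of the 10 had an unadjusted p below 0.05. Phgdh was at 9.90, 9.92 and 9.94, against 9.74, 9.67 and 9.74 with vector, which gave 0.21 ± 0.08 (adjusted p = 0.21) though the groups did not overlap. Asns was 0.00 ± 0.05 and Psph 0.06 ± 0.06.

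**Figure D3:**
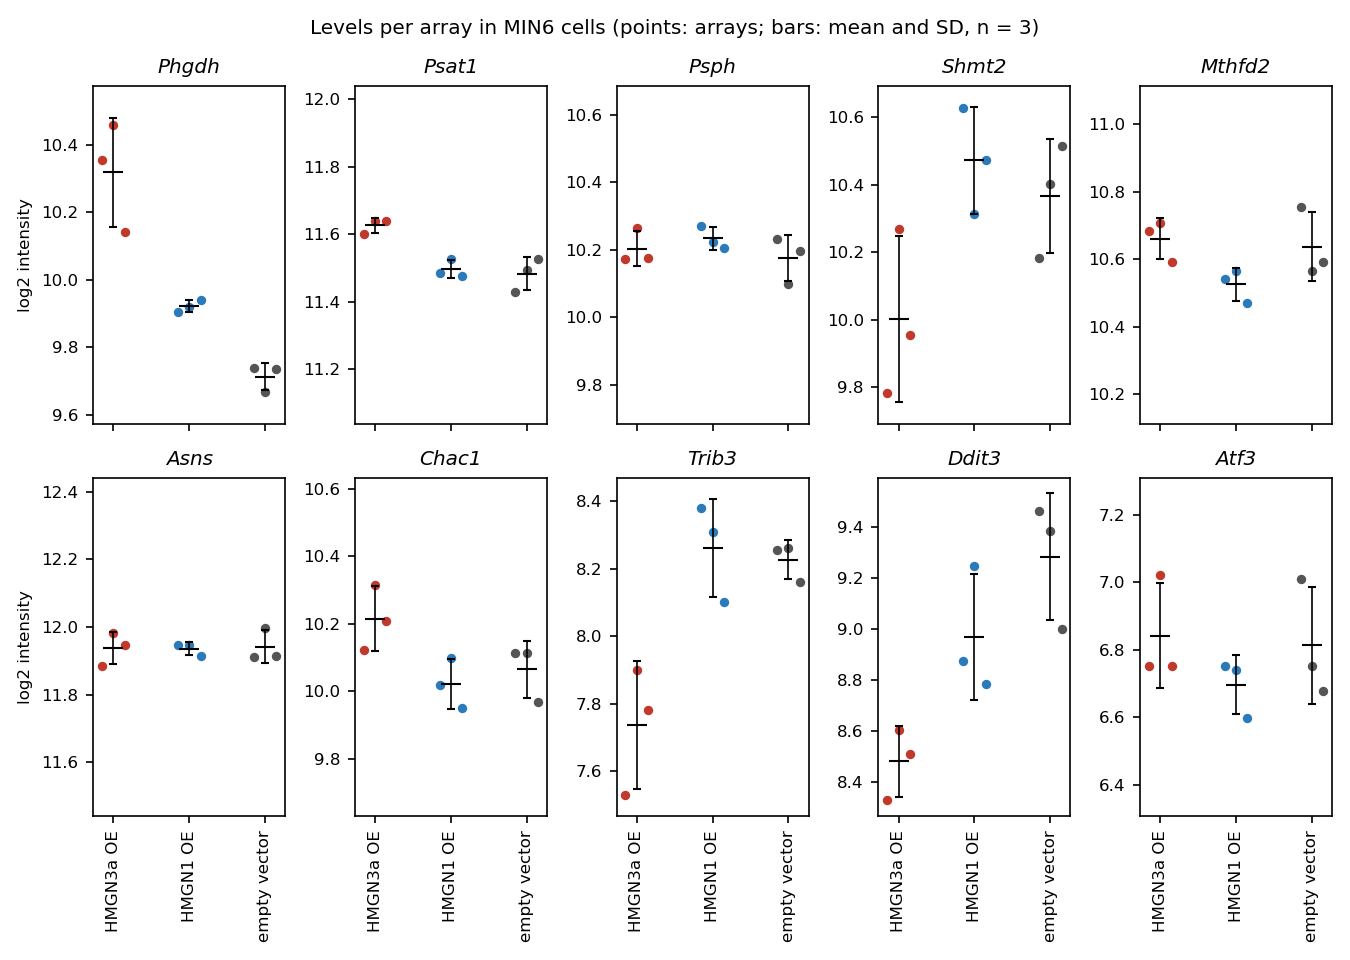
Log2 intensity of each gene in the 9 MIN6 arrays, with a point for each array and bars for the mean and SD (n = 3), and the empty vector at the right. HMGN3a pools lie above the vector pools for Phgdh and below them for Trib3 and Ddit3, while the 3 groups lie together for Asns.

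HMGN1 and HMGN3a were tested in both lines, so their effects could be compared in one fit over 14445 genes. The HMGN1 effect was higher in MIN6 cells than in SV40 MEFs for 5 of the 10 genes, beside 7.66% of all tested genes. Psph led, at 0.06 in MIN6 cells and -0.78 in SV40 MEFs (difference 0.84 ± 0.09, adjusted p = 3.52e-08), then Asns, at 0.00 and -0.81 (difference 0.81 ± 0.09, adjusted p = 5.71e-08). Shmt2, Phgdh and Psat1 differed by 0.56, 0.48 and 0.39. The HMGN3a effect differed for 3 genes: Phgdh was higher in MIN6 cells by 0.74 ± 0.08, and Ddit3 and Trib3 were lower, at -0.88 ± 0.15 and -0.63 ± 0.17, beside 7.11% of all genes higher and 12.7% lower. The joint fit reads Phgdh from the probe set used in MEFs. The lines were normalized apart, so these tests rest on log2 differences within each line, and each construct's amount in the 2 lines was not measured on these arrays.

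In primary MEFs none of the 10 genes was called in any knock out. With HMGN1 knock out 0 of 10 were called where 0.439% of all tested genes were, with HMGN3 knock out 0 where 0.585% were, and in the arrays labelled HMGN5 knock out 0 where 0.0732% were. At an unadjusted p below 0.05 the counts were 1, 0 and 0. The one was Psat1 in HMGN1 knock outs, at 9.14, 9.38 and 9.34, against 9.53, 9.40 and 9.51 in HMGN1 WT (-0.20 ± 0.08, adjusted p = 0.251). Differences ran from -0.23 to 0.04 in HMGN1 knock outs and from -0.01 to 0.23 in HMGN3 knock outs. In the arrays labelled HMGN5 knock out they ran from -0.13 to 0.09. Asns was at 9.97, 9.95 and 9.92 in HMGN3 knock outs, against 9.89, 9.83 and 9.84 in HMGN3 WT (0.09 ± 0.07). Standard errors of the 10 genes were 0.06 to 0.13. A Y index was the mean of 3 Y-linked probe sets, each scaled between its dimmest and brightest primary MEF array. It is a relative signal, not a proportion of male cells. The Y index was 0.0061 to 0.74 in HMGN1 knock outs, against 0.0029 to 0.0083 in HMGN1 WT. It was 0.010 to 0.88 in the arrays labelled HMGN5 knock out, against 0.86 to 0.90 in HMGN5 WT. Its part was not tested beyond use as a covariate, with which 0 of the 10 genes were called in the 3 comparisons. Of the listed genes 0 were called in any knock out.

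**Figure D4:**
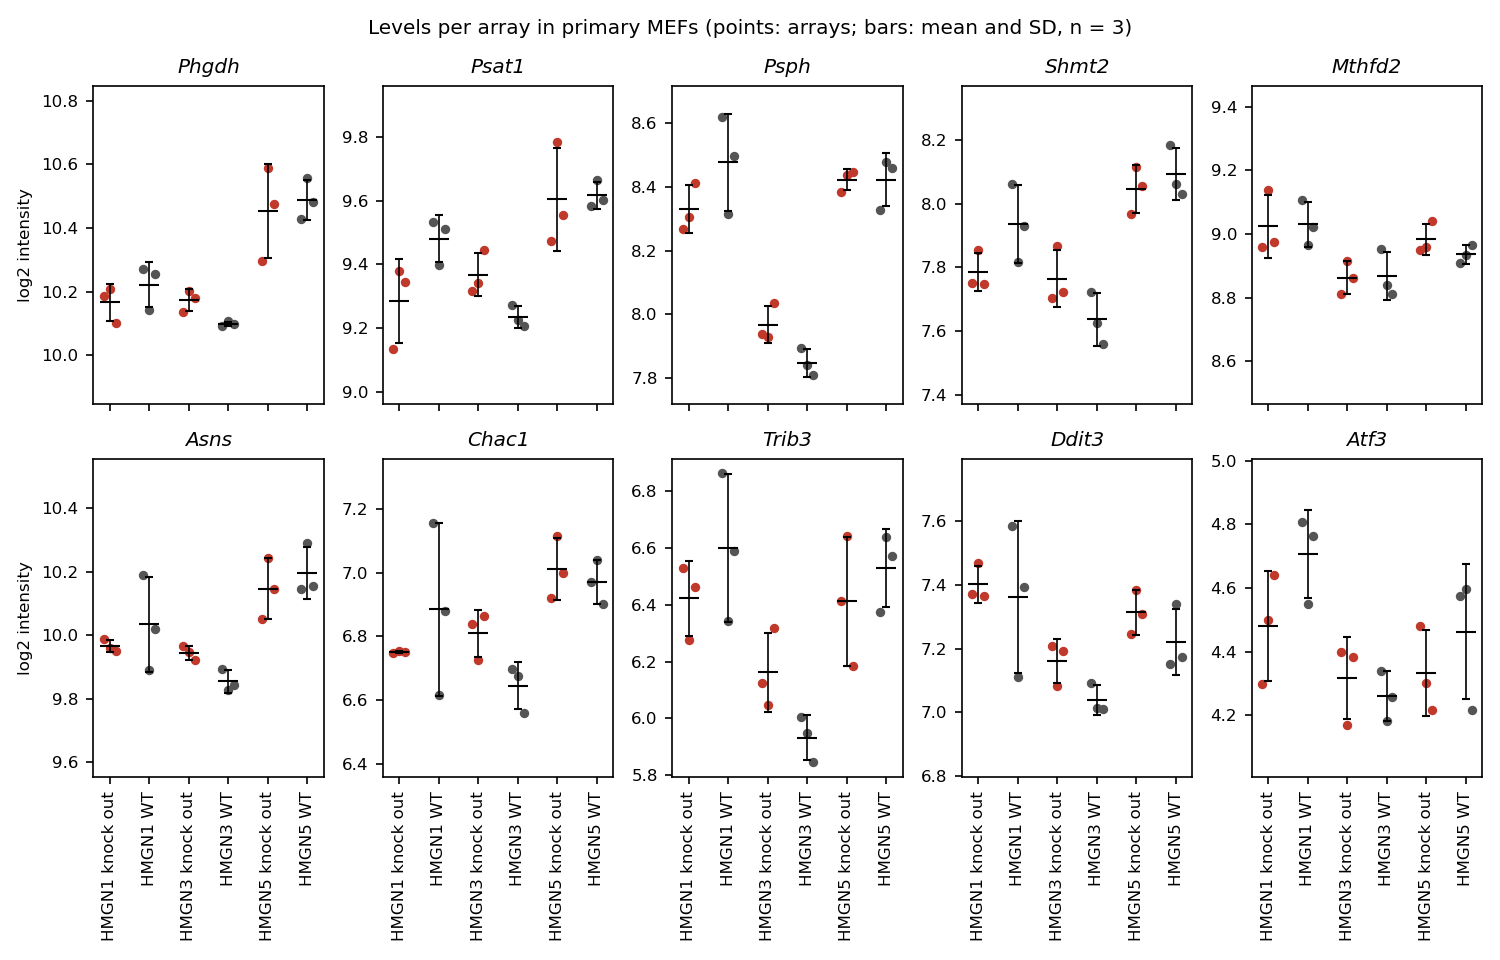
Log2 intensity of each gene in the 18 primary MEF arrays, with a point for each array and bars for the mean and SD (n = 3), and each knock out to the left of its WT. Knock outs lie near their own WT groups, while the 3 WT groups differ, with HMGN3 WT the lowest WT for all 10 genes.

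The WT groups were also set against each other. In HMGN3 WT 6 of the 10 genes were lower than in HMGN1 WT, beside 20.4% of all tested genes. Trib3 was at 6.00, 5.95 and 5.84 in HMGN3 WT, against 6.86, 6.34 and 6.59 in HMGN1 WT (-0.67 ± 0.13, adjusted p = 0.00134), and Psph at 7.89, 7.84 and 7.81, against 8.62, 8.31 and 8.50 (-0.63 ± 0.07, adjusted p = 1.28e-05). Atf3, Ddit3, Shmt2 and Psat1 differed by -0.45, -0.33, -0.30 and -0.25. The Y index was 0.73 to 0.87 in HMGN3 WT and 0.0029 to 0.0083 in HMGN1 WT, and with it as a covariate 2 of the 6 calls were left, Psph and Trib3. Ddit3 was not called without HMGN1 WT array 1, nor Psat1 without HMGN1 WT array 1 or 3 or HMGN3 WT array 2 or 3.

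Against HMGN3 WT, 7 genes were higher in HMGN5 WT, beside 9.92% of all tested genes, where the Y index was 0.86 to 0.90 in HMGN5 WT. Trib3 was at 6.37, 6.64 and 6.57 in HMGN5 WT and differed by 0.60 ± 0.13, Psph by 0.58 ± 0.07 and Shmt2 by 0.46 ± 0.07 (largest adjusted p of these 3 = 0.00476). Phgdh, Psat1, Asns and Chac1 were higher by 0.39, 0.38, 0.34 and 0.33. The call of Chac1 was lost without HMGN3 WT array 2 or 3 or any one HMGN5 WT array. Against HMGN1 WT, Phgdh alone was higher in HMGN5 WT (0.27 ± 0.07, adjusted p = 0.0167), beside 4.73% of all genes, and this was lost with the Y index as a covariate and without HMGN1 WT array 2 or HMGN5 WT array 2 or 3. Summed intensity of 7 macrophage markers was 565 to 598 in HMGN3 WT, 270.4 to 486 in HMGN5 WT and 259 to 267 in HMGN1 WT. Its part was not tested.

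Because levels cannot be set across cell types, each value was ranked among the probe sets of its array, controls left out. The percentiles were then averaged over the arrays of a group. Asns was at the 98.1st to 99.2nd percentile in every group of SV40 MEFs, the 98.5th to 98.9th in primary MEFs and at the 98.8th in MIN6 cells. Trib3 was at the 72.5th percentile in the pools labelled HMGN5 OE and the 84.2nd in vector pools. Ddit3 ranked at the 89.8th to 91.6th percentile in primary MEFs, the 72.1st to 76.0th in SV40 MEFs and the 80.2nd to 87.2nd in MIN6 cells. Ranks of different genes also depend on their probes and are not compared.

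**Figure D5:**
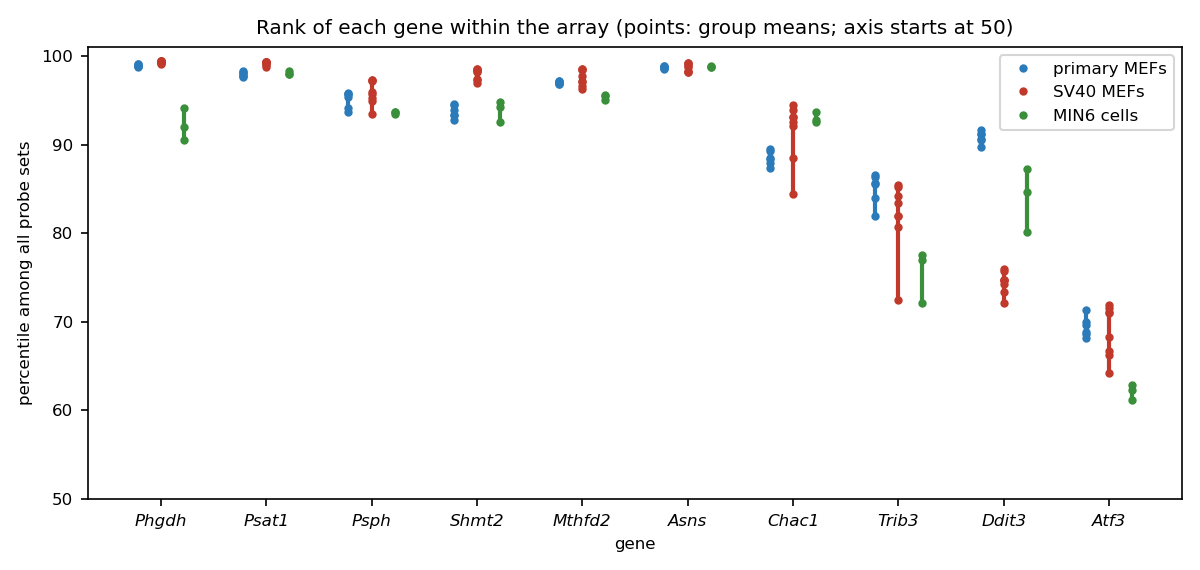
Percentile of each gene among the probe sets of an array, controls left out, averaged over the arrays of a group. Each point is a group and each line runs from the lowest to the highest within a cell type, on an axis that starts at 50. For Ddit3 the primary MEF groups all lie above the MIN6 groups, which lie above the SV40 MEF groups, and Phgdh is read from another probe set in MIN6 cells than in MEFs.

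Over the 8 SV40 MEF group means, the genes most like Asns were sought among 1660 genes whose means span at least 1 log2 unit. Aldh1l2 was closest (Pearson r = 0.99), then Gpt2, a mitochondrial alanine transaminase (0.93), Ifitm10 (0.92) and Dusp2 (0.92). For Phgdh they were Cth (0.96), Lamb3 (0.95), Sprr2h (0.93) and Cobll1 (0.92), and for Ddit3 Stambpl1 (0.94), Rnf227 (0.93), Pdk4 (0.93) and Shox2 (0.92). These are descriptions over 8 means that share one normalization.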

How the data were processed

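The authors deposited linear probe set intensities from arrays hybridised with biotin-labelled cRNA. The submitters' processing notes name RMA, whose version and settings are not given in the sources used here. All 51 value columns were used and grouped by their labels. From the deposited intensities log2 values were taken, with no further normalization. Gene symbols came from the platform annotation, updated through RefSeq: 34945 probe sets had 1 symbol, 932 several, 9160 none, and 64 were controls. In each cell type a probe set was dropped as dim where no group mean reached the 40th percentile of group means (log2 1.99 for primary MEFs, 3.63 for the SV40 line, 5.14 for MIN6). The brightest one left stood for its gene. All 21 probe sets of the 10 genes passed in each cell type.

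Each cell type was fitted apart in R 4.3.3 by lmFit and eBayes of limma 3.58.1, 1 mean per group and no covariate, over 13669, 13461 and 13169 genes. P-values are two-sided and Benjamini-Hochberg adjusted over all genes tested. The 21 comparisons were 12 with controls, 4 between constructs, 3 between WT groups and 2 between lines. The code was tested on simulated data. Alternatives were no or a stricter filter (60th percentile), single probe sets, renewed quantile normalization, a replicate block, only the compared groups, covariates and leaving out each array. The number of arrays limits the precision. Named are the 10 genes, Atf4, Myc, up to 3 called genes per list and control comparison by largest difference, and 4 genes most like Asns, Phgdh and Ddit3; other genes were named as markers or checks. The 10 genes, lists and tests were chosen with earlier results of these data known. Same-numbered replicates deviated together in 0 of 19 comparisons (every pair r over 0.1), so no pairing was assumed. Figures used python 3.11.15, pandas 2.3.3 and matplotlib 3.10.9.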

Additional observations from a re-analysis of the deposited data

Results flagged for a closer look

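Effects of a construct that differed between MIN6 cells and SV40 MEFs, by the test of the difference itself in limma, concerned 8 values (log2, MIN6 cells minus SV40 MEFs). For HMGN1 the difference was 0.84 ± 0.09 for Psph (adjusted p = 3.52e-08), 0.81 ± 0.09 for Asns (5.71e-08) and 0.56 ± 0.13 for Shmt2 (0.00349). It was 0.48 ± 0.08 for Phgdh (0.000143) and 0.39 ± 0.08 for Psat1 (0.000423). For HMGN3a it was 0.74 ± 0.08 for Phgdh (1.59e-07), -0.63 ± 0.17 for Trib3 (0.00727) and -0.88 ± 0.15 for Ddit3 (5.29e-05).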

How the results depend on the processing

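Over 21 comparisons and all alternatives, 2693 of 2810 values of the 10 genes kept their side of the threshold, 69 calls were lost and 44 gained. The sign changed in 93 values, of which 89 were not called either way. The other 4 were called and arose from reading every probe set on its own, where the dimmer Ddit3 probe set gave -0.52 for N2swap against vector, -0.46 for N2swap against HMGN1 and -0.32 for N3swap against HMGN1 (main values 0.16, 0.18 and 0.01), and a Mthfd2 probe set gave 0.24 for N2swap against HMGN1 (main value -0.23). That reading also raised the count of the 10 genes called to 7 with N2swap (from 4) and 8 with N3swap (from 5), by construction, since any probe set of a gene counts. With the Y index as a covariate, counts were 2 in place of 6 for HMGN3 WT against HMGN1 WT and 0 in place of 1 for HMGN5 WT against HMGN1 WT, where index and group are confounded. In MIN6 cells with HMGN3a the stricter filter and renewed quantile normalization each gave 5 in place of 3. The cause was not tested. Leaving out single arrays gave 0 to 2 for HMGN5 WT against HMGN1 WT, 4 to 9 for HMGN3 WT against HMGN1 WT, 9 to 10 for the pools labelled HMGN5 OE, 8 to 9 for HMGN2, 6 for HMGN1 and 0 in every knock out. The replicate block left 208 of 210 values on their side of the threshold, and lost the calls of Shmt2 (HMGN2 against HMGN1) and Trib3 (N3swap against vector). Correlations of same-numbered replicates ran from -0.34 to 0.38, so the numbers do not pair the samples.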

Other observations

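Over the 8 SV40 MEF group means, 43 of the 45 pairs of the 10 genes were positively correlated, with a median Pearson r of 0.70 beside 0.02 over all gene pairs sampled. The highest was 0.95. The 8 means share one normalization, so this is a description.

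Mycn, a MYC family member read with the regulators, was one of few genes called in the SV40 pools in which none of the 10 genes was called. It was -1.58 in HMGN5SE pools (mean level 11.17, against 12.75 with vector; adjusted p = 6.66e-13), where 2 genes in all were called, and -0.50 in the pools labelled HMGN3a OE (12.25; adjusted p = 0.00161), where 4 were. It was -0.89 in the pools labelled HMGN5 OE and 0.49 in HMGN1 pools.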
